A study of Homo sapiens with 48 samples.

Results

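The genes described here are 10 regulators of pre-mRNA splicing that are not classed as SR proteins or hnRNPs. They are the Cdc2-like kinases CLK1, CLK2, CLK3 and CLK4, the transformer proteins TRA2A and TRA2B, the polypyrimidine tract-binding proteins PTBP1 and PTBP2, and the RNA-binding proteins TIA1 and RBM39. They were taken by gene name, 10 of 57820 genes in the deposited table, as splicing regulators with known decay-prone isoforms. All 10 passed the filter on low counts, which kept 19129 genes. RNA was measured by paired-end sequencing after depletion of ribosomal RNA, in 48 libraries of Flp-In 293 T-REx cells. These derive from the human embryonic kidney line HEK293 and carry 1 genomic site into which a transgene is inserted. The study crossed 8 stable lines with 2 siRNAs, siUPF1 against endogenous UPF1 and the non-targeting siNT, each at 40 nM with harvest after 72 h and 3 libraries per group.

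The 6 mutant lines expressed CLIP-tagged UPF1 with the change K498A, DE636AA, R843C, A546H, GA-KH or E797R. K498A lies in the ATP-binding motif of the UPF1 helicase, and DE636AA lies in its ATP-hydrolysis motif. In the WT line the tagged UPF1 carried no such change. The CLIP line held the tag alone, so siUPF1 left it with no UPF1 from the transgene. Every line therefore carried a CLIP transgene, and every library had been transfected with an siRNA. Whether a line was 1 clone, and whether the transgene was induced, is not given in the sources used here. The design text calls the replicates biological. Nothing more says how the cultures were kept apart, so p-values measure the spread between these libraries.

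Nonsense-mediated mRNA decay (NMD) degrades transcripts in which a stop codon lies well upstream of an exon junction, and the helicase UPF1 is its central factor. Many splicing regulators limit their own level through it: the protein steers its own pre-mRNA towards an isoform with a premature stop codon, which NMD then removes. Such an isoform arises from an included poison exon or from a skipped exon that shifts the reading frame. CLK kinases phosphorylate the serine- and arginine-rich domains of SR proteins and so release them from nuclear speckles. TRA2 proteins bind purine-rich exonic enhancers, PTBP1 and PTBP2 repress exons near pyrimidine tracts, TIA1 promotes use of weak 5′ splice sites, and RBM39 acts with U2AF in 3′ splice site choice.

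The isoforms behind this list can be seen in the GENCODE release 29 annotation (GRCh38), which labels 29 transcripts of 8 of the 10 genes as NMD targets. CLK2 and PTBP2 had none under that label, CLK3 and CLK4 had 3 each, CLK1, PTBP1 and TIA1 had 2 each, TRA2A and TRA2B had 1 each, and RBM39 had 15. The last 30 transcribed bases up to and including the premature stop codon are shown for the 6 genes whose kind of isoform is described below, 5′ to 3′, with the stop codon in capitals.
CLK1-204: tcacatgggatgaaattgttgatacttTAG
CLK4-210: tgggtgaaggagcctttggcaaagttgTAG
TRA2A-203: aaaatcggagagcaggtcaggatctcgTAG
TRA2B-206: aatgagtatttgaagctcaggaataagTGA
PTBP1-207: gaggcgtctacggtgacgtgcagcgcgTGA
RBM39-206: tttgattccagtgtgaactgtcaatcaTAA
CLK1-204 (chromosome 2, minus strand) and CLK4-210 (chromosome 5, minus strand) each skip a coding exon of 91 bases and stop in an exon of 67 bases. PTBP1-207 (chromosome 19, plus strand) skips a coding exon of 34 bases. TRA2B-206 (chromosome 3, minus strand) stops inside a 276-base exon that no protein-coding transcript of the gene holds, 1015 bases before the last exon junction. RBM39-206 (chromosome 20, minus strand) stops in a 73-base exon of the same kind, and 8 of the 15 RBM39 transcripts share that stop. TRA2A-203 (chromosome 7, minus strand) stops in a 134-base exon that coding transcripts also use, 57 bases before the last junction. The deposited counts are per gene, so none of these isoforms was measured apart from its protein-coding partner.

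The 48 libraries held 21.3 to 47.1 M expected counts each (median 32.3 M). Counts of the 10 genes in a library ran from 504 for CLK4 to 28516 for RBM39. Levels are given as CPM, counts scaled to a common normalised library total. They are not per length, so they are compared between libraries only. UPF1 itself averaged 24.2 ± 10.9 CPM in CLIP siUPF1 and 108 ± 4.14 CPM in CLIP siNT (SD, n = 3 each). In the 7 lines with CLIP-UPF1, where transgene and endogenous reads were counted together, no UPF1 change was called (adjusted p from 0.0786 to 0.958 by edgeR). Their siNT groups averaged from 4165 CPM of UPF1 in R843C to 5614 CPM in DE636AA, far above CLIP siNT. These counts therefore cannot show how far endogenous UPF1 was lowered in the 7 lines. One library, CLIP siUPF1 replicate 2, stood apart. UPF1 was at 36.8 CPM there, and at 18.2 and 17.7 CPM in the other two of its group. Its mitochondrial share of counts was 0.631%, and theirs were 2.32% and 2.13%. Its GC coefficient was 0.76, and theirs were -0.03 and 0.23. This coefficient is the rank correlation, over 11679 genes, of transcript GC content with a library's deviation from the mean of all 48. All 8 markers of HEK293 cells passed the filter, but so did 4 of the 12 markers of other cell types, so passing it does not identify the cells. VIM, NEFL, KRT8 and KRT18 had 74.5 CPM or more in every library, whereas NEFM, NES, PAX2 and LHX1 had 8.91 CPM at most. Of the 12 markers of other cell types, EPCAM had 64.9 to 100.2 CPM, COL3A1 13.4 CPM at most and COL1A1 4.67 CPM at most, whereas PTPRC, CD3E, HBB, ALB, GFAP, MYH7, INS and KRT5 stayed under 1 CPM in every library and PECAM1 was not analysed.

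The comparison of siUPF1 with siNT within a line asks how these genes changed with siUPF1 beside each transgene. Effects of siUPF1 other than the loss of endogenous UPF1 were not tested apart from it. CLK2 rose in all 8 lines and TRA2A rose in 7, whereas CLK1, CLK4, TRA2B and TIA1 were called in 0 lines by edgeR and by DESeq2. Of these 4 genes, CLK1 in DE636AA and TIA1 in A546H had an unadjusted p under 0.05. All 4 gained calls when the GC coefficient of the libraries, described below, was a covariate. PTBP1 fell in K498A and DE636AA, PTBP2 fell in CLIP, CLK3 rose in CLIP, and RBM39 rose in CLIP, R843C and A546H. A gene was called at an adjusted p under 0.05 in edgeR's quasi-likelihood test with Benjamini-Hochberg adjustment over all tested genes. In CLIP 5 of the 10 genes were called, 4 higher and 1 lower, where 47.4% of all tested genes were called. Elsewhere 2 genes were called in E797R (29.5% of all genes), GA-KH (28.3%), A546H (32.2%) and WT (27.2%), and 3 in R843C (32.5%), DE636AA (34.3%) and K498A (32.7%). These shares lie near or below those of all genes, so the number of calls is no result about the set. The median log2 fold change of the 10 genes ran from -0.03 in WT to 0.14 in CLIP, against medians over all genes of 0.01 and -0.01 in these lines.

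**Figure D1:**
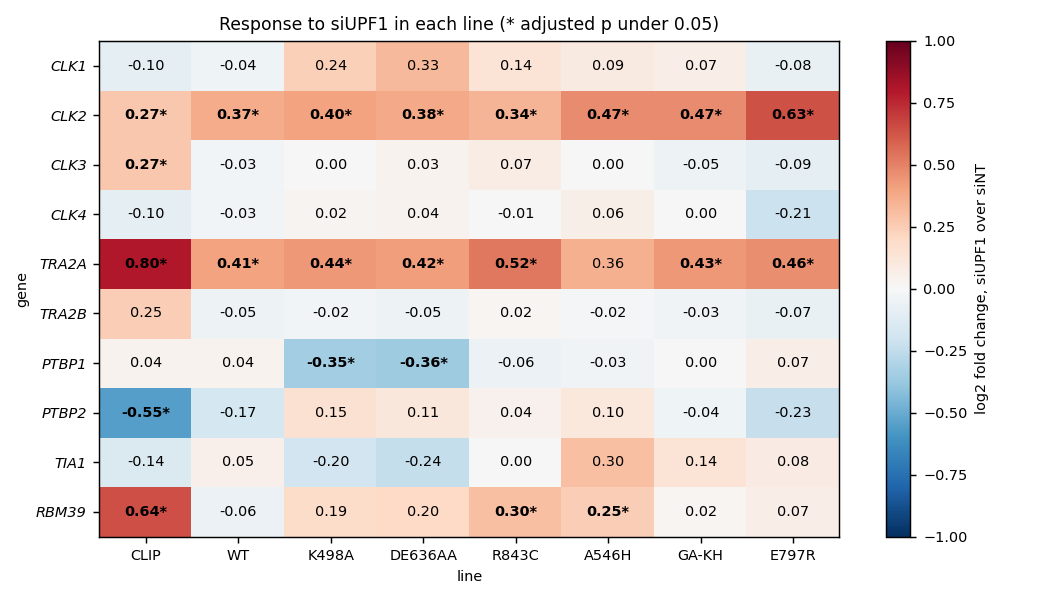
Log2 fold changes of siUPF1 over siNT for the 10 genes (rows) in the 8 lines (columns), with colour for size and direction and an asterisk where the adjusted p was under 0.05. CLK2 and TRA2A are positive in every line, and PTBP1 is called, at -0.35 and -0.36, only in K498A and DE636AA.

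CLK2, a kinase of SR proteins, rose to levels above every siNT library of the same line in each of the 8 lines. In E797R it had 64.4, 60.0 and 71.6 CPM with siUPF1 and 42.7, 40.0 and 43.6 CPM with siNT. In CLIP the levels were 58.4, 50.7 and 52.8 CPM with siUPF1 and 46.5, 43.1 and 44.5 CPM with siNT. In WT they were 62.9, 68.1 and 60.3 CPM with siUPF1 and 45.9, 50.1 and 51.7 CPM with siNT. The siUPF1 and siNT libraries thus did not overlap in these lines, nor in the other 5; 6.27% of all tested genes had siUPF1 above siNT libraries in all 8 lines. In these bulk libraries, a change in fewer cells and a smaller change in every cell cannot be told apart.

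The log2 fold change of CLK2 was 0.63 (SE 0.08, edgeR adjusted p = 2.02e-07) in E797R, 0.37 (SE 0.08, adjusted p = 0.000754) in WT and 0.27 (SE 0.08, adjusted p = 0.00751) in CLIP. The other values were 0.47 in GA-KH and A546H, 0.40 in K498A, 0.38 in DE636AA and 0.34 in R843C, with adjusted p from 3.1e-05 to 0.00152. Of all tested genes, 5.75% were called higher in all 8 lines. In CLIP the call was lost in the fit to that line's own 6 libraries (0.26, adjusted p = 0.132), with no filter on low counts (0.25, adjusted p = 0.0912) and with the GC coefficient as a covariate (0.20, adjusted p = 0.0514). In the other 7 lines it stood under every alternative run. CLK2 overlaps HCN3 on the opposite strand and has the processed pseudogene CLK2P1, and the strand setting of the counting is not given, so its reads are uncertain to that extent.

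CLK3, a further kinase of the family, was called in CLIP alone, and there through 1 library. It had 57.7, 82.0 and 58.4 CPM with siUPF1 and 54.0, 53.2 and 56.9 CPM with siNT. All 3 siUPF1 libraries lay above the siNT libraries, replicates 1 and 3 by little and replicate 2, the library that stood apart, by far. CLK3 rose by 0.27 on the log2 scale (SE 0.10, edgeR adjusted p = 0.0205), and without CLIP siUPF1 replicate 2 it was 0.09 (adjusted p = 0.474). The call was also lost without CLIP siNT replicate 1 (0.26) or replicate 2 (0.25), with no filter on low counts (0.25), in the fit to the line's own 6 libraries (0.27) and with the GC covariate (0.03). In the other 7 lines the log2 fold change of CLK3 lay between -0.09 and 0.07. CLK3 overlaps EDC3 on the opposite strand and has the pseudogene CLK3P2.

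CLK1 and CLK4, of which the transcripts CLK1-204 and CLK4-210 skip an exon of the same length, were called in no line without the GC covariate. CLK1 responses ran from -0.10 in CLIP to 0.33 in DE636AA. In K498A every siUPF1 library of CLK1 lay above every siNT library, but the response of 0.24 was not called (SE 0.16, edgeR adjusted p = 0.259). In DE636AA, CLK1 had 52.9, 53.6 and 39.0 CPM with siUPF1 and 42.6, 42.0 and 31.6 CPM with siNT. Replicate 3 was the lowest of both groups and the groups overlapped, with an SE of 0.16 and an edgeR adjusted p of 0.111. With the replicate number as a block, the same change of 0.33 was called (adjusted p = 0.0338). The block is an additive term shared by all lines and does not pair samples within a line. The change was also called without DE636AA siUPF1 replicate 3 (0.48, adjusted p = 0.0252) and with no filter on low counts (0.35, adjusted p = 0.0161). CLK4 responses ran from -0.21 in E797R to 0.06 in A546H, with adjusted p of 0.246 or more. Its 3 siUPF1 libraries in E797R, at 30.2, 30.1 and 23.7 CPM, lay just below the siNT libraries at 30.3, 32.1 and 34.8 CPM.

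**Figure D2:**
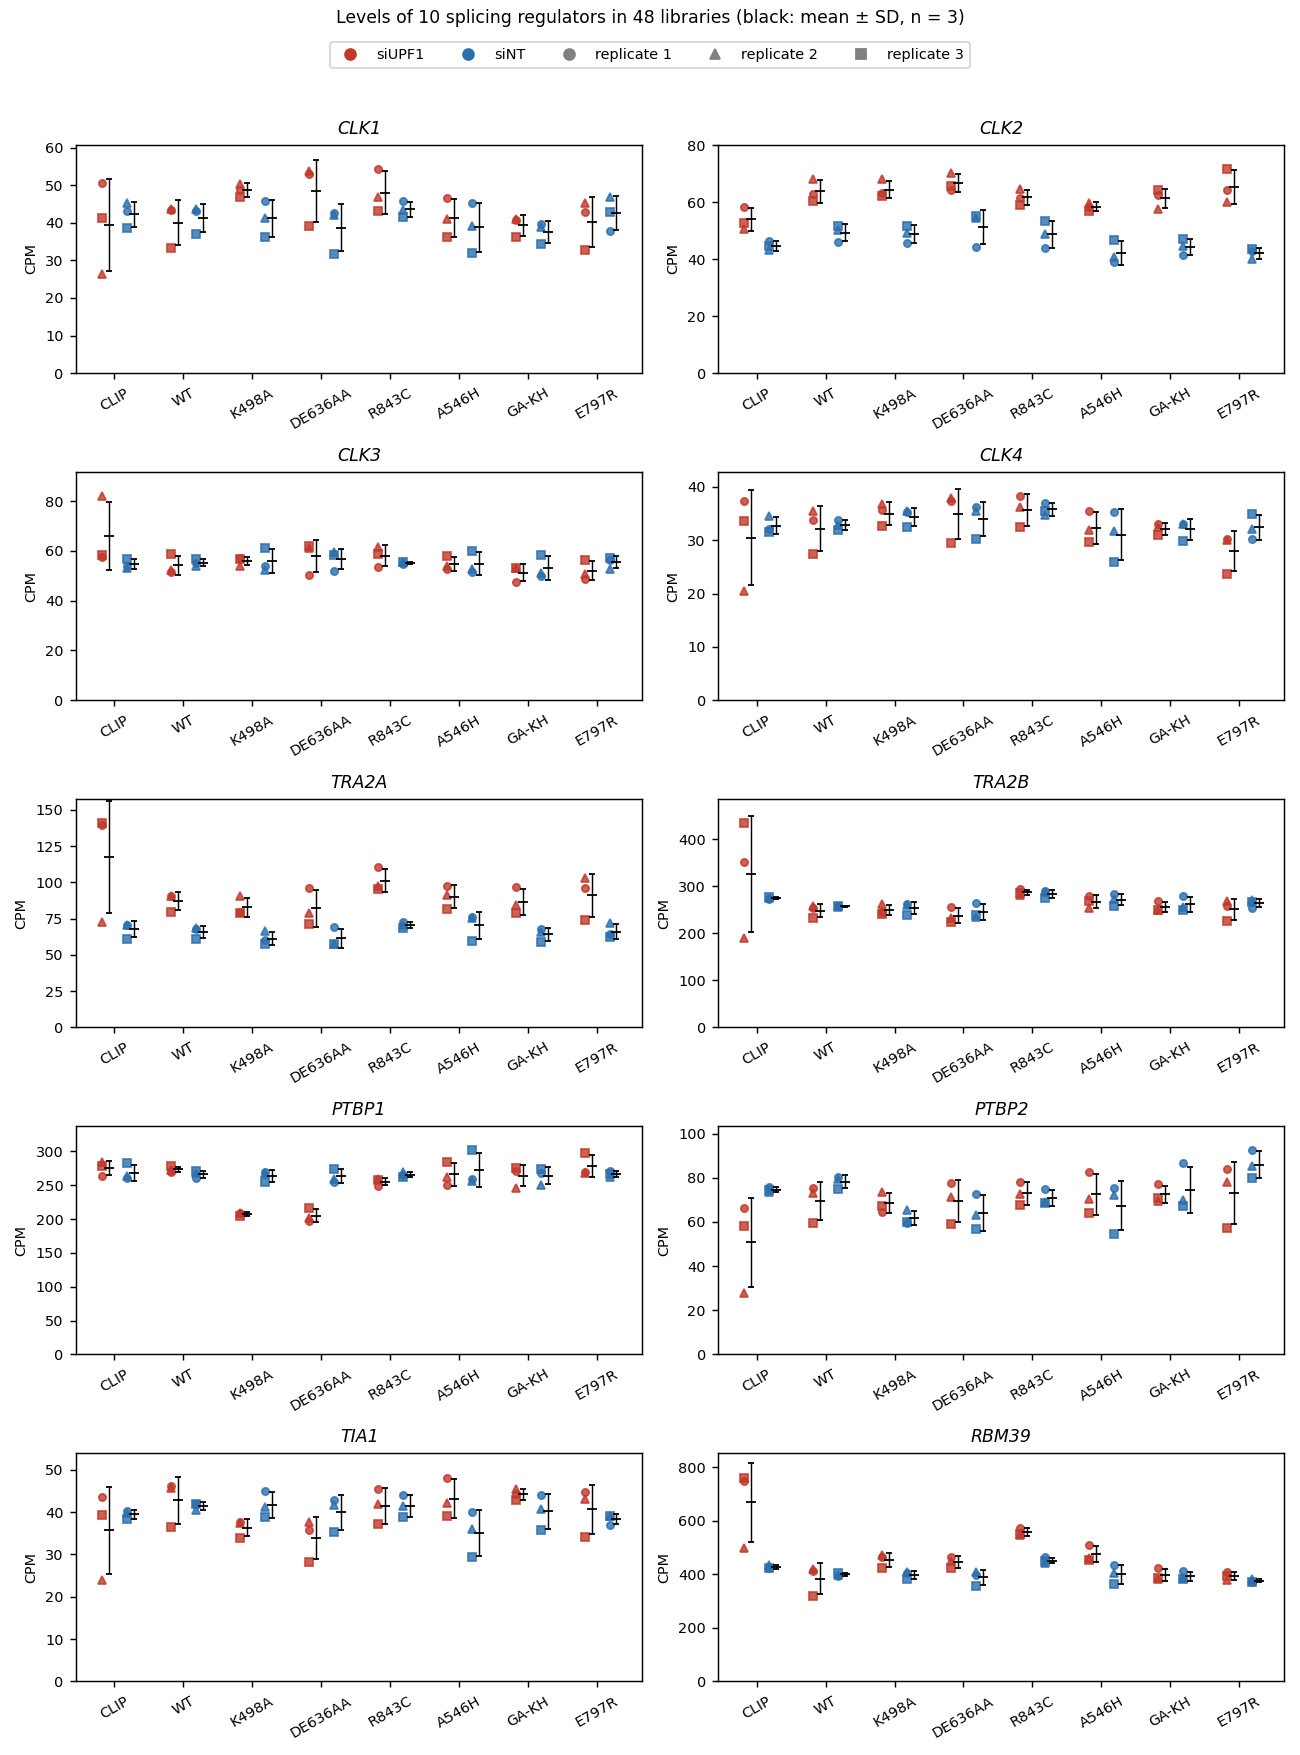
Levels in CPM (vertical axes, from 0) of the 10 genes in each of the 48 libraries, by line, siUPF1 in red to the left of siNT in blue, with marker shape for the replicate number and black bars for mean ± SD (n = 3). PTBP1 shows K498A and DE636AA siUPF1 libraries at 197 to 217 CPM, below every other library, and CLIP siUPF1 replicate 2 (triangle) lies apart from the other two of its group in CLK1, CLK3, CLK4, TRA2A, TRA2B, PTBP2, TIA1 and RBM39.

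TRA2A, an activator of exon inclusion, rose in all lines but A546H. In CLIP it had 139, 72.7 and 141 CPM with siUPF1 and 70.7, 70.8 and 61.3 CPM with siNT, so replicates 1 and 3 had about the same level and replicate 2 lay just above the siNT libraries. In R843C it had 110.4, 97.7 and 95.6 CPM with siUPF1 and 72.6, 70.4 and 68.2 CPM with siNT. In WT it had 90.7, 90.5 and 79.8 CPM with siUPF1 and 67.7, 68.7 and 60.8 CPM with siNT. As with CLK2, the siUPF1 and siNT libraries of TRA2A did not overlap in any of the 8 lines.

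The log2 fold change of TRA2A was 0.80 in CLIP (SE 0.15, edgeR adjusted p = 2.38e-05), 0.52 in R843C (SE 0.15, adjusted p = 0.0052) and 0.41 in WT (SE 0.15, adjusted p = 0.037). TRA2A was also called in E797R (0.46), K498A (0.44), GA-KH (0.43) and DE636AA (0.42). In A546H it was 0.36 and missed the threshold (adjusted p = 0.0619). It passed in the fit to the line's own 6 libraries (0.35, adjusted p = 0.0317) and with no filter on low counts (0.34, adjusted p = 0.0129). Called higher in 7 or more of the 8 lines were 8.01% of all tested genes. In CLIP and R843C the call stood whichever library was left out, and in CLIP it was lost only in the fit to its own 6 libraries (0.79, adjusted p = 0.0536).

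In 5 lines the TRA2A call was lost in some fits with 1 library left out, but under none of the other alternatives. It was lost in WT without siNT replicate 1, 2 or 3 or siUPF1 replicate 1 or 2 (values from 0.35 to 0.44). It was lost in K498A without siNT replicate 1 or 3 or siUPF1 replicate 2 (0.38 to 0.42), and in DE636AA without siNT replicate 2 or 3 or siUPF1 replicate 1 (0.31 to 0.38). It was lost in GA-KH without siNT replicate 3 or siUPF1 replicate 1 (0.37 and 0.34), and in E797R without siNT replicate 1 or 3 or siUPF1 replicate 1 or 2 (0.37 to 0.44).

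TRA2B, the paralog with the 276-base poison exon, was called in no line with all libraries and no covariate. In CLIP it had 352, 191 and 434 CPM with siUPF1 and 272, 275 and 277 CPM with siNT. Replicates 1 and 3 lay above all siNT libraries and replicate 2 lay below them. The response was 0.25 (SE 0.13, edgeR adjusted p = 0.112), and without CLIP siUPF1 replicate 2 it was 0.52 (SE 0.07, adjusted p = 3.9e-07). With the GC covariate it was 0.44 and called (adjusted p = 0.00143), and with that covariate and the replicate block TRA2B was called in CLIP (0.59, adjusted p = 9.55e-06) and R843C (0.29, adjusted p = 0.0134). Among the other 7 lines TRA2B ranged from -0.07 in E797R to 0.02 in R843C, and the siUPF1 and siNT libraries overlapped in each.

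PTBP1, a repressor of exons that also promotes skipping of its own 34-base exon, fell in the lines with UPF1 changed in its ATP-binding or ATP-hydrolysis motif. In K498A it had 209, 209 and 204 CPM with siUPF1 and 269, 268 and 254 CPM with siNT. In DE636AA it had 197, 202 and 217 CPM with siUPF1 and 255, 259 and 275 CPM with siNT. In both lines every siUPF1 library lay well below every siNT library. In WT it had 269, 273 and 278 CPM with siUPF1 and 260.2, 268 and 270.4 CPM with siNT, which overlapped. In R843C, where PTBP1 was not called, it had 249, 258 and 258 CPM with siUPF1 and 265, 270 and 262 CPM with siNT, which did not overlap.

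The log2 fold change of PTBP1 was -0.35 in K498A (SE 0.06, edgeR adjusted p = 1.98e-05) and -0.36 in DE636AA (SE 0.06, adjusted p = 1.16e-05). Both calls stood under every alternative run, GC covariate and each left-out library included. In the other 6 lines the response lay between -0.06 in R843C and 0.07 in E797R, with adjusted p from 0.454 to 0.992. Of all tested genes, 1.55% were called lower in K498A and DE636AA and not called in the other 6 lines. PTBP1 has the processed pseudogene PTBP1P, whose reads could be shared with it.

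PTBP2, the paralog enriched in neurons, fell in CLIP, where it had 66.3, 28.0 and 58.1 CPM with siUPF1 and 75.7, 73.6 and 74.3 CPM with siNT. All 3 siUPF1 libraries lay below the siNT libraries, and replicate 2 lay lowest by far. The response was -0.55 (SE 0.17, edgeR adjusted p = 0.00693), and without CLIP siUPF1 replicate 2 it was -0.26 (adjusted p = 0.119). It was also not called with the GC coefficient as a covariate (-0.19, adjusted p = 0.16) or in the fit to the line's own 6 libraries (-0.57, adjusted p = 0.179). In the other 7 lines PTBP2 ranged from -0.23 in E797R to 0.15 in K498A, none of them called.

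TIA1, a promoter of weak 5′ splice sites that also marks stress granules, was called in no line without the GC covariate, with responses from -0.24 in DE636AA to 0.30 in A546H. In DE636AA it had 35.8, 37.7 and 28.1 CPM with siUPF1 and 42.9, 41.7 and 35.2 CPM with siNT, which overlapped (SE 0.14, edgeR adjusted p = 0.186). In A546H it averaged 43.2 ± 4.57 CPM with siUPF1 and 35.1 ± 5.34 CPM with siNT (SD, n = 3 each), which overlapped as well (SE 0.14, adjusted p = 0.0953). In K498A every siUPF1 library of TIA1 lay below every siNT library, but the response of -0.20 was not called (SE 0.14, adjusted p = 0.294). The A546H value passed without A546H siNT replicate 1 (0.40, adjusted p = 0.0478). TIA1 overlaps C2orf42 on the same strand.

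RBM39 had its largest response in CLIP, at 746, 497 and 761 CPM with siUPF1 and 424, 435 and 424 CPM with siNT. In R843C it had 574, 545.7 and 549.8 CPM with siUPF1 and 463, 443 and 448 CPM with siNT. In WT it had 411, 421 and 317 CPM with siUPF1 and 395, 397 and 407 CPM with siNT. The libraries did not overlap in CLIP and R843C, and overlapped in WT, where siUPF1 replicate 3 was the lowest of all 48 libraries.

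The log2 fold change of RBM39 was 0.64 in CLIP (SE 0.10, edgeR adjusted p = 8.31e-07) and 0.30 in R843C (SE 0.10, adjusted p = 0.0141), and both calls stood under every alternative run. In A546H it was 0.25 (SE 0.10, adjusted p = 0.0469). That call was lost with RLE size factors, with no filter on low counts, in the fit to the line's own 6 libraries, and without A546H siNT replicate 2 or 3 or siUPF1 replicate 1 or 2 (0.18 to 0.27). In K498A and DE636AA the response was 0.19 and 0.20, with siUPF1 libraries above all siNT libraries but adjusted p of 0.144 and 0.11. In WT, GA-KH and E797R it was -0.06, 0.02 and 0.07.

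Whether a response differed between lines was tested on the difference itself. Over all 8 responses jointly, PTBP1 (edgeR joint test, adjusted p = 0.00015) and RBM39 (adjusted p = 0.00565) were called, 2 of 10 genes where 15.1% of all genes were. CLK2, which rose everywhere, was not (adjusted p = 0.388), nor was TRA2A (adjusted p = 0.769). With the GC covariate described below, the joint test also called TIA1 (adjusted p = 0.000433), TRA2A (adjusted p = 0.00192), CLK1 (adjusted p = 0.0142) and PTBP2 (adjusted p = 0.0241). The share of all genes called by that joint test was not computed, so the added calls are no result about the set. The comparisons with CLIP share its 6 libraries and those with WT share its 6, so values for different lines are not independent of each other.

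Set against CLIP, RBM39 responded less in 5 lines. Its response was -0.06 in WT against 0.64 in CLIP, a difference of -0.70 (SE 0.14, edgeR adjusted p = 0.000342). The difference was -0.63 (SE 0.14, adjusted p = 0.00138) in GA-KH, -0.58 (SE 0.14, adjusted p = 0.00307) in E797R, -0.46 (SE 0.14, adjusted p = 0.0212) in K498A and -0.44 (SE 0.14, adjusted p = 0.0207) in DE636AA. In A546H (-0.40, adjusted p = 0.0809) and R843C (-0.34, adjusted p = 0.334) it was not called, and the 95% interval of the R843C difference ran from -0.62 to -0.06. The K498A call was lost without CLIP siUPF1 replicate 3 (-0.36), and the DE636AA call without CLIP siUPF1 replicate 3 or DE636AA siNT replicate 2 (-0.34 and -0.40).

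PTBP1 differed from CLIP in K498A (-0.35 against 0.04 in CLIP, difference -0.38, SE 0.09, edgeR adjusted p = 0.00196) and in DE636AA (difference -0.39, SE 0.09, adjusted p = 0.00114). PTBP2 differed in the same lines, at 0.15 in K498A against -0.55 in CLIP (difference 0.70, SE 0.24, adjusted p = 0.0439) and in DE636AA (0.66, SE 0.24, adjusted p = 0.047). Without CLIP siUPF1 replicate 2 the PTBP2 differences were 0.41 and 0.38 and neither was called. Both were also lost without any 1 of the 3 CLIP siNT libraries. With the GC covariate the DE636AA difference was 0.38 and not called. The K498A difference was lost as well without K498A siNT replicate 1 or 3 or siUPF1 replicate 1, 2 or 3, and the DE636AA difference without DE636AA siNT replicate 2 or 3 or siUPF1 replicate 1 or 2. CLK2 rose more in E797R than in CLIP, by 0.36 (SE 0.12, adjusted p = 0.0379). That call was lost with RLE size factors (0.34, adjusted p = 0.0527), and without CLIP siNT replicate 1 or 3, CLIP siUPF1 replicate 2 or 3, E797R siNT replicate 1 or 2, or E797R siUPF1 replicate 1 or 3 (0.29 to 0.37). It was lost too with no filter on low counts (0.34, adjusted p = 0.213).

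The 10 genes gave 1 call in WT minus CLIP (11.9% of all genes called), 3 in K498A (13.6%), 3 in DE636AA (17.9%), 1 in GA-KH (14.3%) and 2 in E797R (13.3%). None was called in R843C minus CLIP (0.753% of all genes) or A546H minus CLIP (5.63%) by edgeR, with 2 and 4 at an unadjusted p under 0.05 and 0 and 1 by DESeq2. The all-gene counts rest on single libraries. In R843C minus CLIP 144 genes were called, but 584 without CLIP siUPF1 replicate 1, 256 without CLIP siUPF1 replicate 3, 94 without CLIP siNT replicate 3, 87 without R843C siNT replicate 2 and 86 without R843C siUPF1 replicate 1. In A546H minus CLIP 1077 were called, but 3326 without CLIP siUPF1 replicate 1, 2131 without CLIP siUPF1 replicate 3, 656 without CLIP siNT replicate 2, 635 without A546H siUPF1 replicate 1 and 608 without A546H siNT replicate 3. In the other 5 lines the highest count against CLIP, 3815 to 5200, was that without CLIP siUPF1 replicate 1. It was also over 1.5 times the full count without CLIP siUPF1 replicate 3 in GA-KH (4267) and WT (3513), and the full count was over 1.5 times that without siNT replicate 3 of the line in K498A (1613) and GA-KH (1780). Set against WT, PTBP1 alone was called, in K498A (difference -0.39, SE 0.09, adjusted p = 0.00568) and DE636AA (-0.40, SE 0.09, adjusted p = 0.00326). That is 1 of 10 genes in each, where 3.26% and 4.5% of all genes were called. Those are 623 and 860 genes, and without WT siNT replicate 2 they were 359 and 510. In K498A they were also 384 without siUPF1 replicate 2 and 411 without siNT replicate 1. With no filter on low counts the 4 PTBP1 differences were between -0.37 and -0.35 and none was called (adjusted p from 0.119 to 0.287), nor was the joint test (adjusted p = 0.154). No gene of the set was called against WT in R843C (1.94% of all genes), A546H (0.298%), GA-KH (0%) or E797R (0%), with 1, 1, 0 and 1 at an unadjusted p under 0.05 by edgeR and none by DESeq2. For TRA2A, differences from WT ran from -0.05 in A546H to 0.12 in R843C, and their 95% intervals together spanned -0.47 to 0.54.

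**Figure D3:**
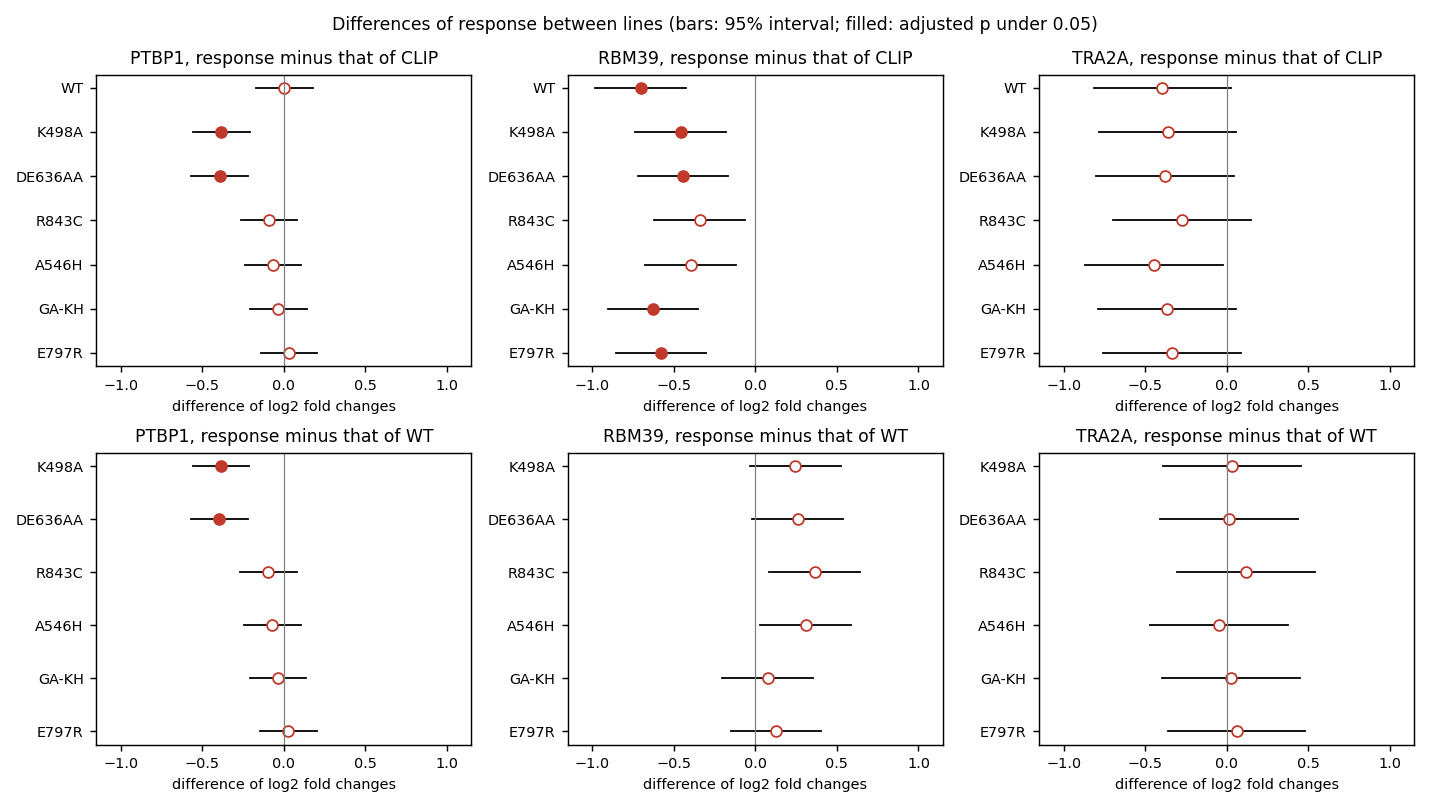
Differences of log2 fold change (horizontal axes) between each line's response and that of CLIP (upper row) or WT (lower row), for PTBP1, RBM39 and TRA2A, with 95% intervals as bars and filled points where the adjusted p was under 0.05. PTBP1 is filled in K498A and DE636AA in both rows, whereas RBM39 is filled in 5 lines against CLIP and in none against WT.

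The siNT libraries ask whether the transgene alone moved these genes while endogenous UPF1 was present. PTBP1 averaged between 263 ± 10.3 CPM in DE636AA and 272 ± 25.2 CPM in A546H (SD, n = 3 each), against 269 ± 11.9 CPM in CLIP, so its lines differed in siUPF1 libraries and not detectably in siNT libraries. Against CLIP siNT no gene of the set was called by edgeR in WT (0.0314% of all genes called), K498A (0.0366%), DE636AA (1.34%), R843C (0.0889%), A546H (0.125%), GA-KH (0.0627%) or E797R (0.0261%). The 257 genes behind the DE636AA share became 1142 without DE636AA siNT replicate 1, and 4 to 36 without any 1 of the other 5 libraries in that comparison. At an unadjusted p under 0.05 there was 1, CLK2 in DE636AA (0.20, SE 0.08, adjusted p = 0.211), and DESeq2 called 0 in each. The joint test over the 8 siNT groups called 0 of the 10 genes and 4.18% of all genes, with CLK2 at an unadjusted p of 0.00699 and an adjusted p of 0.102.

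Since CLIP siUPF1 replicate 2 stood apart, the response of CLIP was also fitted without it. Then 4 of the 10 genes were called, all higher, where 41.1% of all genes were called, 22.2% higher and 19% lower. RBM39 rose by 0.82 (SE 0.08, edgeR adjusted p = 4.96e-11), TRA2A by 1.05 (SE 0.12, adjusted p = 2.65e-09), TRA2B by 0.52 (SE 0.07, adjusted p = 3.9e-07) and CLK2 by 0.31 (SE 0.09, adjusted p = 0.00451). CLK1, CLK4 and TIA1 were then at 0.12, 0.11 and 0.07, against -0.10, -0.10 and -0.14 with all libraries, and called in neither fit. Against this response, TRA2B differed in all 7 other lines (-0.60 in E797R to -0.50 in R843C), RBM39 in all 7 (-0.89 in WT to -0.52 in R843C) and TRA2A in all but R843C (-0.70 in A546H to -0.60 in E797R). Called against it were 4 of the 10 genes in DE636AA (14.5% of all genes) and K498A (10.9%), 3 in E797R (11.1%), WT (10.4%), GA-KH (10.3%) and A546H (4.18%), and 2 in R843C (0.936%). The replicate's higher UPF1, lower mitochondrial share and higher GC coefficient moved with these values, and their part in them was not tested.

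**Figure D4:**
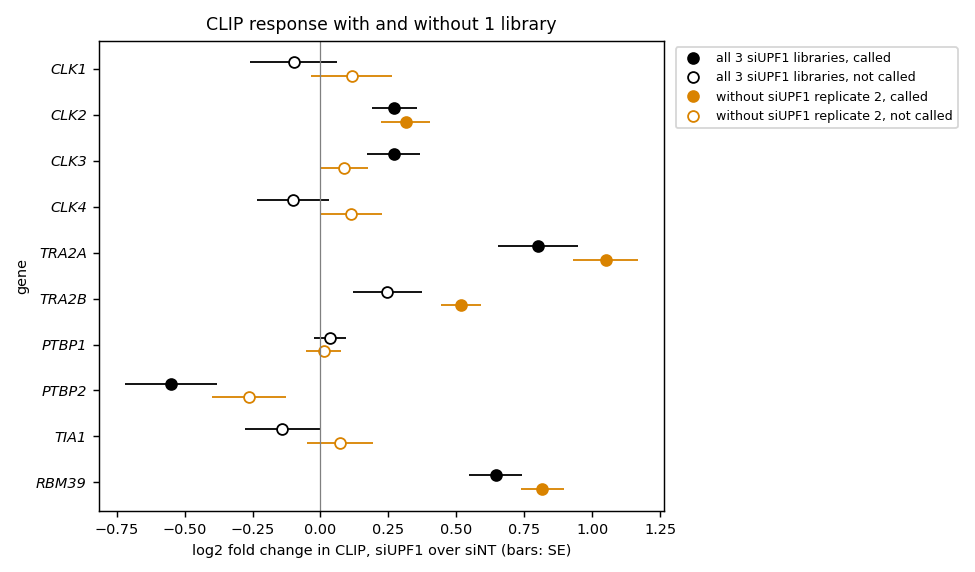
Log2 fold change of siUPF1 over siNT in CLIP (horizontal axis, bars for SE) for the 10 genes, with all 3 siUPF1 libraries in black and without siUPF1 replicate 2 in orange, filled where called. TRA2B moves to 0.52 and is called only without the library, and PTBP2 and CLK3 are called only with it.

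GC content also moved with the replicate number. The GC coefficient was highest in replicate 3 in 13 of the 16 groups. CLK1 (longest transcript 35.7% GC), CLK4 (36.2%), TIA1 (36.6%) and TRA2A (41.1%) were lowest in replicate 3 in 14, 13, 13 and 14 of the 16 groups, and PTBP2 (34.7%) in 11. TRA2B (40.3%) and RBM39 (41.6%) were lowest there in 9 groups each. PTBP1 (61.7% GC), CLK2 (52.3%) and CLK3 (46.5%) were highest there in 10, 9 and 12 groups. The median over all genes was 47.6% GC, so CLK3 lay below it. With the coefficient as a covariate, an alternative chosen after seeing the data, CLK1 was called higher in R843C (0.43, edgeR adjusted p = 2.98e-05), DE636AA (0.40, adjusted p = 3.2e-05), K498A (0.37, adjusted p = 0.000117), CLIP (0.29, adjusted p = 0.00364) and A546H (0.20, adjusted p = 0.0304). TRA2A was then called in all 8 lines, A546H included (0.45, adjusted p = 0.000112). TIA1 was called higher in A546H (0.40, adjusted p = 1.79e-05), R843C (0.24), CLIP (0.19) and GA-KH (0.17), and lower in DE636AA (-0.18). CLK4 was called higher in CLIP (0.21) and R843C (0.22), TRA2B in CLIP (0.44), PTBP2 in R843C (0.32) and K498A (0.26), and RBM39 also in K498A and DE636AA (0.24 each). CLK3 was called lower in E797R (-0.16) and PTBP1 also in R843C (-0.12), while the calls of CLK2, CLK3 and PTBP2 in CLIP were lost. Shares of all genes called moved in the same fits, to 46.9% in CLIP and between 36.6% (WT) and 44.4% (DE636AA) in the other lines. The mean coefficient was higher in the siUPF1 group than in the siNT group of all 8 lines (0.32 against -0.34 in CLIP, and -0.12 against -0.17 in GA-KH, the smallest gap), so the covariate is not independent of the siRNA.

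**Figure D5:**
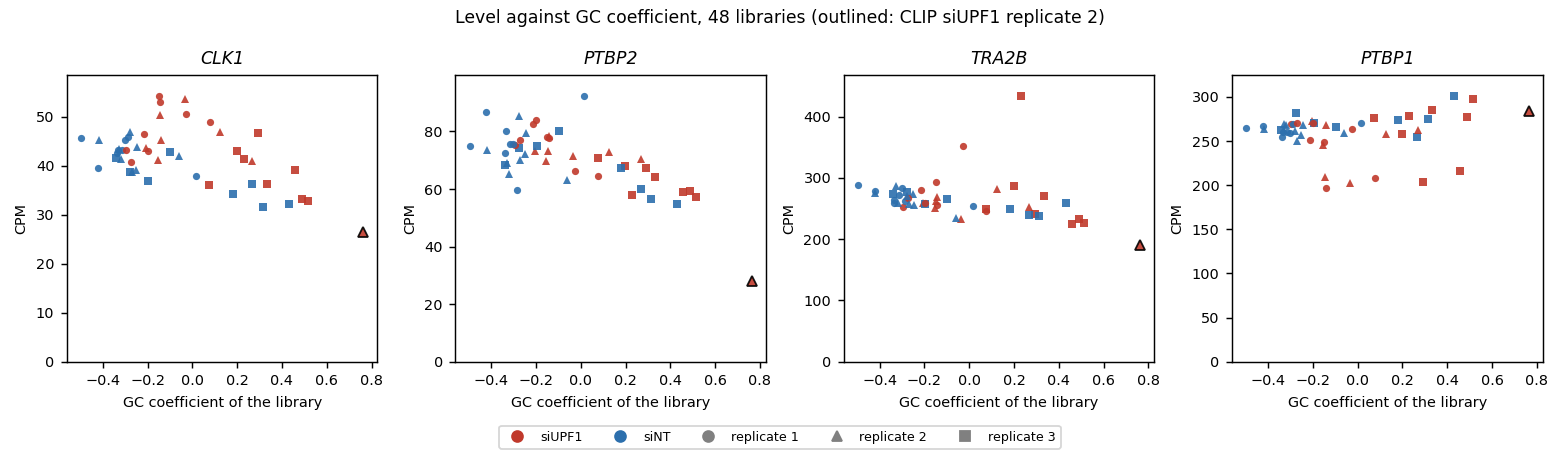
CPM of CLK1, PTBP2, TRA2B and PTBP1 (vertical axes, from 0) against the GC coefficient of each of the 48 libraries (horizontal axes), siUPF1 in red and siNT in blue, with marker shape for the replicate number. CLIP siUPF1 replicate 2, outlined, has the highest coefficient (0.76) and the lowest CLK1, PTBP2 and TRA2B levels, whereas the PTBP1 libraries at the bottom are those of K498A and DE636AA siUPF1.

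Across the 16 groups, mean levels formed a near-continuous order for most genes. CLK2 ran from 42.1 ± 1.85 CPM in E797R siNT to 66.8 ± 3.26 CPM in DE636AA siUPF1 (SD, n = 3 each), and its 8 siUPF1 groups were the 8 highest. TRA2A was ordered in the same way by siRNA, from 61.2 ± 4.52 CPM in K498A siNT to 118 ± 38.9 CPM in CLIP siUPF1. PTBP1 ran from 205 ± 10.3 CPM in DE636AA siUPF1 to 279 ± 16.7 CPM in E797R siUPF1. RBM39 ran from 376 ± 6.21 CPM in E797R siNT to 668 ± 148 CPM in CLIP siUPF1. Of the 15 steps between neighbouring groups in the order of each gene, 1 step of PTBP1 (R843C siUPF1 above K498A siUPF1) and 1 of RBM39 (R843C siUPF1 above A546H siUPF1) had libraries that did not overlap. All other neighbours, for all 10 genes, overlapped. How often such a step occurs over all tested genes was not computed, so these steps are no result about PTBP1 or RBM39.

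The genes whose group means were most like those of a member were ranked by Pearson's r of log2 group mean CPM over the 16 groups, among 11493 candidates averaging 5 CPM or more. These r describe group means from shared libraries and carry no test. PTBP1 was most like DPYSL3 (0.98) and DDB1 (0.96), RBM39 most like SDHAP1 (0.98) and DCLRE1C (0.96), TRA2A most like PPP6R1 (0.99) and NUDC (0.98), and CLK2 most like SLC19A2 (0.98) and KIAA1598 (0.97). TRA2B was most like TRAIP (0.95) and CIAPIN1 (0.94), CLK3 most like BAK1 (0.94) and CREBZF (0.92), and TIA1 most like SACM1L (0.92) and MST4 (0.91). CLK1 was most like SH3BGRL2 (0.90) and JMJD1C (0.88), PTBP2 most like CUL1 (0.90) and SLC39A6 (0.89), and CLK4 most like RLIM (0.85) and N4BP2L2 (0.85). Without CLIP siUPF1 replicate 2 only 4 of these 20 genes were named again.

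The other splicing regulators were counted in 4 lists of 60 genes, 58 of them tested. In CLIP more of them fell than rose: 9 of 58 were called higher and 29 lower, where 25.1% and 22.3% of all genes were, with a median of -0.21 against -0.01 over all genes. Among SR proteins 1 of 11 rose, SRSF10 (0.53, SE 0.12), and 6 fell, SRSF12 most (-0.73, SE 0.15). Among hnRNPs 4 of 20 rose and 11 fell, from HNRNPA3 (-0.78, SE 0.12) to HNRNPH3 (0.75, SE 0.12). Of 5 splicing kinases other than the CLKs, 1 rose, DYRK1B (1.09, SE 0.10), and 3 fell, PRPF4B most (-0.37, SE 0.10). Of 22 other RNA-binding regulators 3 rose and 9 fell, from the cold-inducible RBM3 (-1.50, SE 0.11) to CELF1 (0.72, SE 0.05). Part of this rests on CLIP siUPF1 replicate 2. Without it the counts were 2 higher and 0 lower of the 5 kinases, 2 and 4 of the 11 SR proteins, 4 and 12 of the 20 hnRNPs and 5 and 8 of the 22 others. That is 13 higher and 24 lower of 58, where 22.2% and 19% of all genes were called.

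In WT the same lists gave 6 higher and 8 lower of 58, where 14% and 13.3% of all genes were called, with a median of -0.02 against 0.01. DYRK1B (0.61, SE 0.10), HNRNPAB (0.49, SE 0.11) and RAVER1, a partner of PTBP1 (0.35, SE 0.11), were the highest of their lists and were called. RBM3 (-1.31, SE 0.11), SRSF12 (-0.69, SE 0.15) and HNRNPA3 (-0.31, SE 0.12) were the lowest of theirs and were called. The highest SR protein, SRSF7 (0.12, SE 0.09), and the lowest kinase, SRPK1 (-0.15, SE 0.10), were not called. The 10 genes of the set, by comparison, gave 2 higher and 0 lower in WT.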

How the data were processed

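RNA from 48 libraries was compared. The deposited table holds RSEM expected counts per gene, not normalised, made by the authors. Per the submitters' processing notes the tools were cutadapt, STAR, RSEM and DESeq2 and the build hg19. Versions, annotation release and strand setting are not given in the sources used here. Expected counts were rounded to whole numbers. The fits used edgeR 4.0.16 in R 4.3.3 (TMM, filterByExpr with the 16 groups, quasi-likelihood fit to all 48 libraries, 1 term per group). There were 28 comparisons and 2 joint tests, each with Benjamini-Hochberg adjustment over 19129 genes and calls at an adjusted p under 0.05. SEs were derived from the fold change and its F statistic. The alternatives were RLE size factors, no filter, DESeq2 1.42.0, a line's own 6 libraries, each library left out, the replicate number as a block and, chosen after seeing the data, a GC covariate and list counts without 1 library. The fit was tested on simulated data.

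Replicate pairs (48) all differed by more than sampling noise. Same-numbered siUPF1 and siNT libraries deviated together (every correlation of the 3 over 0.1) in WT, K498A, DE636AA, R843C and GA-KH. In CLIP, A546H and E797R not all of the 3 correlations were over 0.1, though in A546H those of replicates 1 and 3 were 0.61 and 0.62. Named genes are the 10 members, UPF1, the highest and lowest gene of each list in CLIP and WT, and the 2 genes most like each member. The members and lists were chosen with earlier results of these data known. SRSF8, whose symbol is on more than 1 row, and the untested SRPK3 were left out of list counts. Transcript sequences and GC content came from GENCODE release 29 (GRCh38), so no coordinates are printed. With 504 or more counts per gene and library, the spread between replicates and not counting error limits the precision.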

Additional observations from a re-analysis of the deposited data

Results flagged for a closer look

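The responses of 4 of the 10 genes differed from that of CLIP or WT in at least 1 line by the test of the difference (edgeR, adjusted p under 0.05). In each of these 13 comparisons taken alone, 0% to 17.9% of all genes were called. The share of all genes called in at least 1 of the 13 was not computed, so 4 of 10 is no result about the set. The joint test over the 8 responses called 2 of the 10 genes, PTBP1 and RBM39, where 15.1% of all genes were called, and not CLK2 (adjusted p = 0.388) or PTBP2 (adjusted p = 0.271). For RBM39 the difference from CLIP was -0.70 in WT, -0.46 in K498A, -0.44 in DE636AA, -0.63 in GA-KH and -0.58 in E797R. For PTBP1 the difference from CLIP was -0.38 in K498A and -0.39 in DE636AA, and the difference from WT was -0.39 in K498A and -0.40 in DE636AA. For PTBP2 the difference from CLIP was 0.70 in K498A and 0.66 in DE636AA, and both rest on CLIP siUPF1 replicate 2, without which they were 0.41 and 0.38 and not called. For CLK2 the response was higher in E797R than in CLIP by 0.36, a call lost in 8 of the 12 fits with 1 library left out.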

How the results depend on the processing

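The alternatives were RLE size factors, no filter on low counts, DESeq2, a line's own 6 libraries, each library left out, the replicate block (the replicate number as an additive term) and, chosen after seeing the data, the GC covariate alone or with that block. Causes of the changes were not tested. No direction of a called gene turned with RLE, DESeq2, no filter, own libraries, the block alone or any left-out library. With the GC covariate the sign turned for CLK1 (0.29), CLK4 (0.21) and TIA1 (0.19) in CLIP and CLK4 (0.22) in R843C. With GC covariate and block it turned for CLK1 (0.29), CLK3 (-0.0042), CLK4 (0.28) and TIA1 (0.22) in CLIP and CLK4 (0.27) in R843C.

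Counts of the 10 genes called moved as follows. With the GC covariate they were 8 in R843C (42.5% of all genes called, against 32.5% without it), 6 in K498A (43.3% against 32.7%), 6 in DE636AA (44.4% against 34.3%) and 5 in A546H (42.6% against 32.2%). Against CLIP they were then 5 in DE636AA (18.1% of all genes), 5 in E797R (15.3%), 3 in GA-KH (13.1%), 2 in WT (15.4%), 2 in A546H (6.06%) and 1 in R843C (2.09%, against 0.753% without it), and against WT 2 in DE636AA (10.1%) and 1 in R843C (4.83%). The joint tests then called 6 for the responses and 2 for siNT. With GC covariate and replicate block they were 8 in R843C (43.2% of all genes), 7 in A546H (44.7%), 6 in K498A (45.1%), 6 in DE636AA (46.7%) and 4 in E797R (42%). Against CLIP they were then 6 in K498A (15.3% of all genes), 5 in DE636AA (18.6%), 5 in E797R (15.6%), 3 in WT (16.2%), 3 in A546H (6.06%), 3 in GA-KH (12.8%) and 2 in R843C (2.77%). Against WT they were 2 in DE636AA (12.7%) and 1 in R843C (6.85%). The joint tests then called 7 and 2, and DE636AA siNT against CLIP siNT 1 (8.91%). With the replicate block alone they were 4 in A546H (37.1% of all genes), 2 in A546H minus CLIP (10.4%) and 1 in the joint siNT test. With no filter they were 3 in CLIP, 2 in GA-KH minus CLIP, 1 each in A546H, R843C and E797R minus CLIP, 0 in K498A and DE636AA minus WT, and 1 in the joint siNT test. RLE gave 1 in A546H and 1 in E797R minus CLIP, DESeq2 gave 1 in A546H minus CLIP, and CLIP's own 6 libraries gave 1 in CLIP. Among the smaller moves, DESeq2 also called CLK3 in E797R minus CLIP (-0.39, adjusted p = 0.0428). Counts given here without a share of all genes, those of the joint tests included, are no result about the set.

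Leaving out 1 library gave 4 to 5 in CLIP, 1 to 2 in WT, GA-KH and E797R, 2 to 3 in K498A, 2 to 4 in DE636AA, 3 in R843C and 1 to 3 in A546H. Against CLIP it gave 1 to 3 in WT, GA-KH and E797R, 2 to 4 in K498A, 1 to 4 in DE636AA, 0 to 2 in R843C and 0 to 3 in A546H. Against WT it gave 1 in K498A and DE636AA and 0 in the other 4 lines. Between siNT groups it gave 0 to 1 in DE636AA, the 1 being CLK2 without DE636AA siNT replicate 1, and 0 in the other 6. The counts of all genes moved in these fits too, so these ranges are no result about the set. Of the 3 siUPF1 samples of a line, 1 in CLIP, 2 in A546H and 1 in E797R correlated best with the siNT sample of their own number. In A546H the same-numbered correlations were 0.61, 0.06 and 0.62. The block gave calls for TRA2A (0.36, adjusted p = 0.0294) and TIA1 (0.30, adjusted p = 0.0339) in A546H. It also called CLK3 in E797R minus CLIP (-0.36, adjusted p = 0.0273), PTBP2 and RBM39 in A546H minus CLIP (0.66, adjusted p = 0.0337, and -0.39, adjusted p = 0.0401) and CLK2 in the joint siNT test (adjusted p = 0.0385). Beside CLK1 in DE636AA it changed no other call of these genes. The unstated strandedness limits CLK2 and CLK3, which overlap genes on the opposite strand. Pseudogenes limit CLK2, CLK3 and PTBP1, and a same-strand overlap limits TIA1. The counts are per gene, and no isoform was measured.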

Other observations

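Among the other splicing regulators, some had responses of one direction in all 8 lines. They are named here after their values were seen. RBM3, an RNA-binding protein induced by mild cold, was the lowest of its list in every line, with log2 fold changes of siUPF1 over siNT from -1.64 in K498A to -1.31 in WT. SRSF12, a low-abundance SR protein, was the lowest SR protein in every line, from -0.75 in E797R to -0.58 in A546H, though without CLIP siUPF1 replicate 2 SRSF5 was the lowest in CLIP (-0.44). DYRK1B, a kinase of the same CMGC group as the CLKs, was the highest of the other splicing kinases in every line, from 0.49 in GA-KH to 1.09 in CLIP. Each of these values was called (edgeR, adjusted p of 0.00254 or less). HNRNPA2B1 was the lowest hnRNP in K498A (-0.71) and DE636AA (-0.86), the lines in which PTBP1 fell. Over all 58 tested regulators, 10 were called higher and 3 lower in E797R, where 29.5% of all genes were called in either direction. The shares of all genes by direction were not computed for E797R, so this split is no result about the regulators. In CLIP 9 were called higher and 29 lower, where 25.1% and 22.3% of all genes were, and 13 and 24 without CLIP siUPF1 replicate 2.

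Between members, the group means of RBM39 had Pearson's r of 0.80 with CLK3, 0.73 with TRA2B and 0.72 with TRA2A over the 16 groups, and those of CLK1 and PTBP1 had -0.77. These are descriptions of 16 group means from the same libraries, and CLIP siUPF1, with 1 library that stood apart, is the highest group of CLK3, TRA2A, TRA2B and RBM39.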
